A study of Homo sapiens with 27 samples.

Results

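The mTOR pathway and its control of the mRNA cap were followed through 10 genes in IMR90 cells, an established line of normal human fetal lung fibroblasts. The genes were taken by symbol from the 60534 gene identifiers shared by all libraries, 19307 of them protein coding. They are SESN2 and DDIT4, which lower mTORC1 activity under stress, TSC1 and TSC2, the complex that switches mTORC1 off, MTOR and RPTOR of mTORC1 itself, the effector kinase gene RPS6KB1, the cap-binding factor gene EIF4E, and EIF4EBP1 and EIF4EBP2, whose products block it. All 10 were found, and all 10 passed the filter on low counts in each kind of library. RNA-seq measured the mRNA of each gene, and Ribo-seq measured the fragments of mRNA shielded by ribosomes, called footprints.

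All cells were wild type and fell into 5 states. Untreated cycling cells (2 RNA-seq and 3 Ribo-seq libraries) were taken before confluence. Quiescent cells (3 and 3) were arrested by contact inhibition. Irradiated cells (3 and 3) had become senescent by day 10 after 15 Gy of ionizing radiation. Etoposide cells (3 and 3) had become senescent over 10 days with 3 doses of 50 uM etoposide, a topoisomerase II poison. Thapsigargin cells (2 and 2) were cycling cells given 25 nM thapsigargin, a blocker of the calcium pump of the endoplasmic reticulum, for 3 h. All states come from 1 cell line. Whether replicates were separate cultures is not stated, so the p-values measure the spread between these libraries, which may be technical.

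mTORC1 is a kinase complex at the lysosome that promotes protein synthesis when nutrients and growth factors are at hand. Its kinase subunit is MTOR, and RPTOR (raptor) brings substrates to it. The substrates include S6 kinase 1 (RPS6KB1) and the 4E-BPs (EIF4EBP1 and EIF4EBP2). Unphosphorylated 4E-BPs hold the cap-binding factor eIF4E and keep it from joining the initiation complex, and mTORC1 frees eIF4E by phosphorylating them. TSC1 and TSC2 form the complex that turns off RHEB, the activator of mTORC1. Sestrin 2 (SESN2) and REDD1 (DDIT4) are made under stress and hold mTORC1 down, the first through the amino acid sensing branch and the second through the TSC complex. Senescent fibroblasts are known for keeping mTORC1 active without growth factors or amino acids. The counts measure mRNA and footprints, not phosphorylation or the activity of mTORC1.

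Each RNA-seq library held 20.6 to 57.1 and each Ribo-seq library 1.94 to 20.0 times 1e6 gene counts, lowest in the thapsigargin Ribo-seq pair. The thapsigargin libraries stood apart in other ways. In RNA-seq 1.35% to 1.40% of their reads were unmapped against 27.8% to 40.6% in all others, and in Ribo-seq 65.2% to 66.9% mapped to several places against 19.8% to 31.9%. Their protocol names a medium without antibiotics, and their Ribo-seq reads were counted on a longer gene list (62703 identifiers) than the other 12 Ribo-seq libraries (60664). The drug, the batch and the gene list cannot be told apart in any thapsigargin comparison of footprints or of footprints relative to mRNA. All RNA-seq libraries were counted on the longer list, but the drug and the batch cannot be told apart in mRNA either. How far the lists can move a gene is shown by POLDIP3, an S6 kinase partner, with 0 to 8 counts in each of the 15 libraries on the longer list and 216 to 1941 in each of the 12 on the shorter. All 8 fibroblast markers were above 1 CPM, summing to 8912 to 14488 CPM in RNA-seq, and no immune marker was above 1 CPM there. In Ribo-seq the fibroblast list summed to 11879 to 12584 CPM under thapsigargin against 34892 to 36705 CPM in cycling cells, and 1 of 5 immune markers was above 1 CPM in irradiated and etoposide cells. Of 5 epithelial markers 1, KRT19, was above 1 CPM in RNA-seq, and the list summed to 93.6 to 101 CPM under thapsigargin against 16.3 to 22.5 CPM in cycling cells. The 5 endothelial markers, TEK and VWF above all, summed to 56.9 to 89.9 CPM after etoposide against 18.4 to 24.7 CPM. The proliferation marker MKI67 set quiescent replicate 2 apart. Its mRNA was at 148 CPM there, within the cycling range of 144 to 167 CPM, against 41.3 and 53.4 CPM in the other quiescent libraries, and its footprints were at 133 CPM against 67.0 and 80.4 CPM. Without that replicate the quiescent comparison with cycling cells still called 2 members in RNA-seq and 3 in Ribo-seq, and the senescent comparison with quiescent cells 1 and 3, and no member lost its call. The part of the cell type markers in the results below was not tested. In such bulk libraries, fewer cells with a transcript and less of it per cell cannot be told apart.

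The threshold for a call was an adjusted p of 0.05 by edgeR's quasi-likelihood test, adjusted over all genes. In RNA-seq, 2 of the 10 genes were called in quiescent cells (15.6% of all 13291 genes tested were), 3 in irradiated (34.9%), 3 in etoposide (34.5%) and 3 in thapsigargin cells (24.5%), each against cycling cells. In Ribo-seq the counts were 3 (21.7% of 11764 genes), 6 (39.8%), 5 (34.0%) and 5 (44.4%). Senescent cells, taken as the mean of irradiated and etoposide cells, gave 1 call against quiescent cells in RNA-seq (34.2%) and 3 in Ribo-seq (26.0%). Irradiated against etoposide cells gave 3 (22.6%) and 2 (21.7%). These shares are near the background, so the set of 10 as a whole did not stand apart. What differed was which genes moved. The calls in RNA-seq fell on SESN2, DDIT4, EIF4EBP1, EIF4EBP2 and EIF4E, and MTOR, RPTOR, TSC1, TSC2 and RPS6KB1 had none. The comparisons with cycling cells share the cycling libraries and are not independent of each other.

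**Figure D1:**
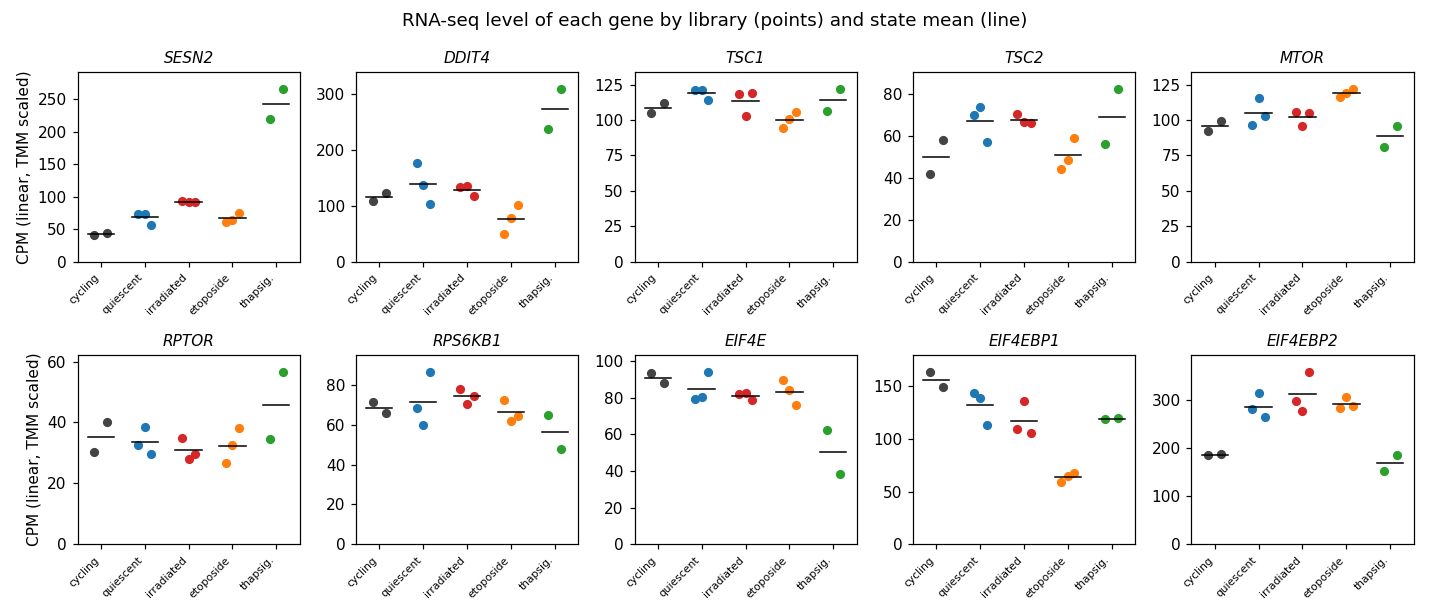
RNA-seq level of each gene in CPM (counts per 1e6, linear axis from 0) in each library (points, 13 in all) with the mean of each state (line). SESN2 was lowest in cycling cells and highest under thapsigargin, EIF4EBP1 was lowest after etoposide, and MTOR and TSC1 ran from 81.3 to 122 CPM and from 94.4 to 122 CPM.

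SESN2, at chromosome 1, positions 28259518 to 28282491 (RefSeq, GRCh38.p14), was higher than in cycling cells in every other state and in both kinds of library. In counts per 1e6 (CPM), its mRNA was at 41.2 and 43.4 in the cycling libraries. It was at 73.4, 73.9 and 56.7 CPM in quiescent, 93.6, 91.6 and 91.4 CPM in irradiated, and 61.2, 64.5 and 74.6 CPM in etoposide cells. Under thapsigargin it reached 220 and 265 CPM. No library of another state overlapped the cycling pair, and the thapsigargin pair lay above all others. The log2 fold changes against cycling cells were 0.69 ± 0.14 in quiescent (SE; edgeR adjusted p = 0.00579), 1.12 ± 0.14 in irradiated (adjusted p = 5.2e-05), 0.66 ± 0.14 in etoposide (adjusted p = 0.00278) and 2.52 ± 0.16 in thapsigargin cells (adjusted p = 4.48e-07). The quiescent call was lost without cycling RNA-seq replicate 1 (adjusted p = 0.0760).

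SESN2 footprints were higher in the same states. They were at 45.7, 34.9 and 39.0 CPM in cycling, 65.1, 61.3 and 102 CPM in quiescent, 96.6, 113 and 110 CPM in irradiated, and 90.1, 95.9 and 93.7 CPM in etoposide cells. The thapsigargin libraries were far apart, at 98.1 and 206 CPM, and the lower of them lay within the irradiated range. All 11 libraries of the other 4 states exceeded the 3 cycling ones. Quiescent, irradiated, etoposide and thapsigargin cells had log2 fold changes of 0.94, 1.42, 1.23 and 1.93, all called (by edgeR, adjusted p = 0.0113, 0.000397, 0.00119 and 8.28e-05). The thapsigargin value ranged from 1.32 to 2.36 when 1 library was left out.

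DDIT4, at chromosome 10, positions 72273924 to 72276036, did not share that pattern. Its mRNA was at 108 and 123 CPM in cycling cells, 176, 138 and 102 CPM in quiescent, 133, 134 and 116 CPM in irradiated, and 50.0, 77.5 and 101 CPM in etoposide cells. Thapsigargin gave 237 and 307 CPM, above every other library. The etoposide libraries were all below the cycling pair, while the quiescent ones spread across it. Under thapsigargin DDIT4 mRNA rose by 1.24 ± 0.28 on the log2 scale (edgeR adjusted p = 0.00678), a call lost without cycling RNA-seq replicate 1 (adjusted p = 0.0649). After etoposide the value was -0.59 ± 0.25 and was not called (adjusted p = 0.0869), except without etoposide RNA-seq replicate 3, at -0.85 (adjusted p = 0.0215).

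DDIT4 footprints were at 170, 133 and 125 CPM in cycling, 227, 176 and 231 CPM in quiescent, 133, 149 and 174 CPM in irradiated, and 202 and 248 CPM in thapsigargin cells. In etoposide cells they were at 41.2, 68.3 and 106 CPM, below all others. The fall after etoposide was called, at -0.98 ± 0.26 (edgeR adjusted p = 0.00889), but not in a fit of these groups alone (adjusted p = 0.0829). The rise under thapsigargin, 0.66 ± 0.28, was not (adjusted p = 0.0710), though a fit of these groups alone called it (adjusted p = 0.0272). The mean of irradiated and etoposide cells against quiescent cells gave -1.01 ± 0.21 (adjusted p = 0.00309), and every alternative kept that call. Against cycling cells, quiescent cells gave 0.57 and irradiated cells 0.09, neither called (edgeR adjusted p = 0.125 and 0.800).

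SESN2 and DDIT4 were the members whose mRNA rose under thapsigargin, and the 250 bases before each start site are shown for that reason. They are RefSeq sequences of build GRCh38.p14, plus strand, DDIT4 at chr10:72273674-72273923 and SESN2 at chr1:28259268-28259517, and the capitals mark ATTGG, which is CCAAT on the other strand.
DDIT4: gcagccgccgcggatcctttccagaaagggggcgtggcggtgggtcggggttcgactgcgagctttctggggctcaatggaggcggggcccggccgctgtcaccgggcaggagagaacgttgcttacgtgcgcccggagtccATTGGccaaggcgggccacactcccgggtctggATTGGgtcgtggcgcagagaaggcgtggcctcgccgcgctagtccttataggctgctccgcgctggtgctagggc
SESN2: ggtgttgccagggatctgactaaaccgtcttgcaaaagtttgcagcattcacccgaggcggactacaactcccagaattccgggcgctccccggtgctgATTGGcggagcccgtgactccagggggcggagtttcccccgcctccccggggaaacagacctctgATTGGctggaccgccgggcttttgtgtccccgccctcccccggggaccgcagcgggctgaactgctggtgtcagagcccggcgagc
Each window holds 2 such matches, starting 108 and 75 bases before the start site in DDIT4 and 151 and 86 in SESN2. Both strands were searched, and 32.0% of 35116 RefSeq promoter windows of that length hold CCAAT. Neither window holds TGATGNAA, a form of the element that ATF4 and CHOP bind (3.14% of windows), or CACGTG, the E-box (6.35%). CCAAT was added to the search after the values were seen. Of the 9 members with a promoter entry, MTOR had 3 CCAAT matches and EIF4E 1. EIF4E also had 2 CACGTG matches, and 1 of the TSC2 windows had overlapping matches to TGATGNAA and CACGTG. A match describes the letters only, and no match says nothing of a factor.

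TSC1 and TSC2 encode the partners of the TSC complex, and neither was called in RNA-seq in the fit over all states. TSC1 (chromosome 9, 132891349 to 132945378) was at 108 ± 5.20 CPM in cycling RNA-seq (SD, n = 2) and between 100 ± 5.66 CPM (etoposide) and 119 ± 3.85 CPM (quiescent) elsewhere (n = 3 each). Its log2 fold change under irradiation was 0.07, with a 95% interval from -0.15 to 0.28. TSC1 was not called in Ribo-seq in that fit either, with 66.2 ± 2.15 CPM in cycling cells (n = 3). Fits of the groups alone called it after etoposide (-0.24; edgeR adjusted p = 0.0471) and for senescent against quiescent cells (-0.28; adjusted p = 0.0220). Thapsigargin gave 64.8 and 103 CPM, a value of 0.34 that was 0.62 without thapsigargin Ribo-seq replicate 1. TSC2 (chromosome 16, 2047985 to 2089491) had more footprints in arrested cells. They were at 95.7, 80.8 and 81.0 CPM in cycling, 109, 103 and 134 CPM in quiescent, 118, 128 and 150 CPM in irradiated, and 110, 106 and 103 CPM in etoposide cells, so all 9 libraries of arrested cells were above the cycling ones. The rise was 0.62 ± 0.12 after irradiation (edgeR adjusted p = 0.00128) and was called in every alternative. In quiescent cells it was 0.43 ± 0.12 (adjusted p = 0.0205). That call was lost in a fit of these groups alone and without cycling Ribo-seq replicate 2, cycling replicate 3 or quiescent replicate 3 (adjusted p up to 0.0703). After etoposide it was 0.31 and not called (adjusted p = 0.0627), though 4 alternatives called it, DESeq2 among them (0.34; adjusted p = 0.0286). The TSC2 mRNA values were 0.43, 0.44 and 0.02 in quiescent, irradiated and etoposide cells, with adjusted p-values of 0.160, 0.0913 and 0.947, and the irradiated value was called in a fit of its groups alone (adjusted p = 0.00862).

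MTOR (chromosome 1, 11106535 to 11262551) encodes the kinase itself, and its mRNA had no call. It was at 95.8 ± 5.10 CPM in cycling RNA-seq (n = 2) and at 119 ± 2.87 CPM after etoposide (n = 3), a log2 fold change of 0.31 ± 0.12 that narrowly missed the threshold (edgeR adjusted p = 0.0508). DESeq2 (0.34; adjusted p = 0.0171), RLE scaling and a fit of these groups alone called it. MTOR footprints rose after etoposide, from 59.0, 60.8 and 65.6 CPM in cycling cells to 86.7, 97.1 and 86.6 CPM, by 0.55 ± 0.14 (edgeR adjusted p = 0.00851), in every alternative. The groups did not overlap. Quiescent and irradiated cells had values of 0.34 and 0.32 that were not called (adjusted p = 0.104 and 0.0913), while DESeq2 called both (adjusted p = 0.0390 and 0.0284). Thapsigargin gave 116 and 71.5 CPM, a called rise of 0.60 (adjusted p = 0.00965) that rested on 1 library, since without thapsigargin Ribo-seq replicate 1 it was 0.20 (adjusted p = 0.292). A fit of these groups alone lost that call too.

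RPTOR (chromosome 17, 80544838 to 80966368), the raptor gene, was at 35.2 ± 6.82 CPM in cycling RNA-seq (n = 2) and 30.8 ± 3.54 to 45.6 ± 15.5 CPM elsewhere, with no call. Under thapsigargin its mRNA value was 0.38 (adjusted p = 0.270), and without thapsigargin RNA-seq replicate 1 both mRNA (0.70; adjusted p = 0.0442) and TE (-0.84; adjusted p = 0.0282) were called. Its footprints were at 77.9, 63.8 and 62.1 CPM in cycling and 50.7, 54.4 and 53.4 CPM in irradiated cells, which did not overlap. The fall of 0.36 on the log2 scale was called (edgeR adjusted p = 0.0215) but was lost without cycling Ribo-seq replicate 1 or irradiated replicate 1 or 3 (adjusted p up to 0.108). RPS6KB1 (chromosome 17, 59893121 to 59950574), the gene of S6 kinase 1, had no call outside thapsigargin. Its footprints were at 19.2, 19.1 and 18.7 CPM in cycling cells and 16.3 to 26.5 CPM in the 9 libraries of arrested cells. Thapsigargin gave 6.54 and 11.5 CPM, from 12 and 22 counts, the lowest of all libraries. That fall of 1.07 on the log2 scale (adjusted p = 0.00635) was not called without thapsigargin Ribo-seq replicate 1 (-0.74; adjusted p = 0.0672).

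**Figure D2:**
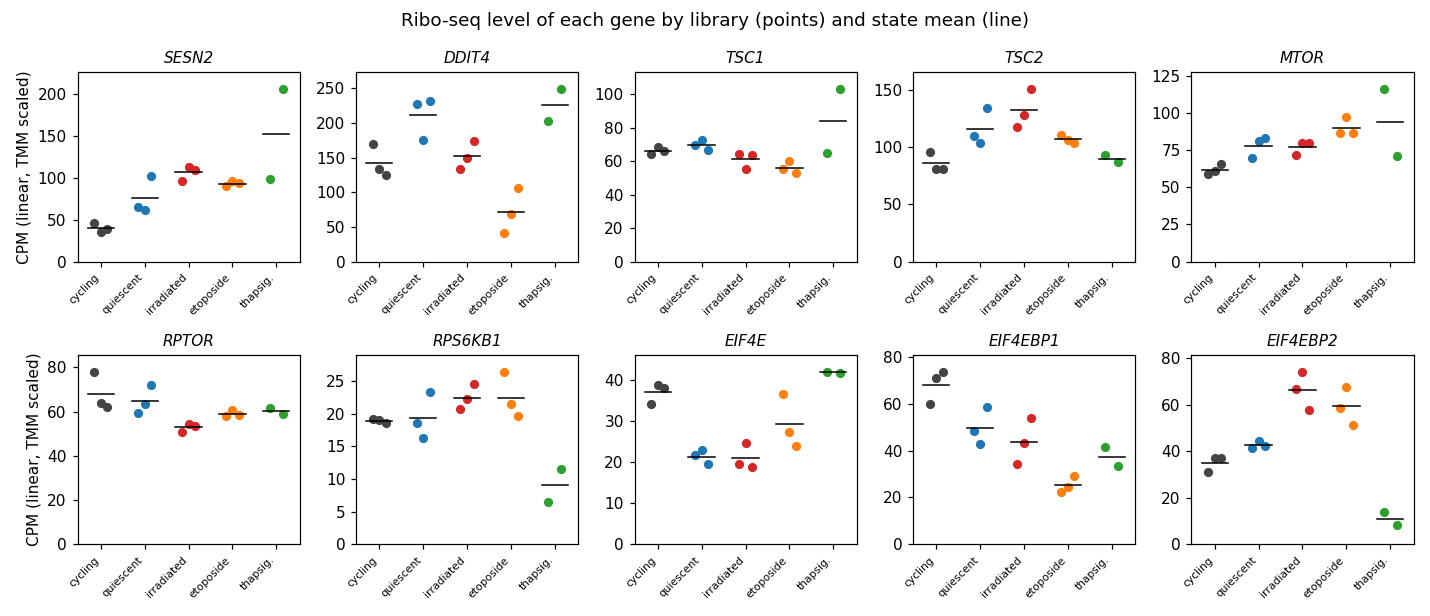
Ribo-seq level of each gene in CPM (linear axis from 0) in each library (points, 14 in all) with the mean of each state (line). EIF4E footprints in quiescent and irradiated cells lay at 18.8 to 24.6 CPM, below the cycling libraries, and EIF4EBP2 footprints were highest in the senescent states and lowest under thapsigargin.

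EIF4E (chromosome 4, 98879276 to 98929133), the cap-binding factor, had fewer footprints in quiescent and irradiated cells with little difference in mRNA. Cycling Ribo-seq libraries were at 34.1, 38.6 and 38.1 CPM. Quiescent ones were at 21.7, 22.9 and 19.4 CPM and irradiated ones at 19.5, 24.6 and 18.8 CPM, none overlapping the cycling range. On the log2 scale quiescent cells differed by -0.79 ± 0.16 (edgeR adjusted p = 0.00353) and irradiated cells by -0.83 ± 0.17 (adjusted p = 0.00174), and both were called in every alternative. Etoposide cells spread from 24.0 to 36.4 CPM and were not called (-0.34; adjusted p = 0.129), except without etoposide Ribo-seq replicate 1 (-0.52; adjusted p = 0.0316). EIF4E mRNA gave -0.10 in quiescent and -0.16 in irradiated cells, neither called (adjusted p = 0.749 and 0.493). Footprints relative to mRNA, the translational efficiency (TE), had values of -0.57 ± 0.24 and -0.55 ± 0.25, which did not pass the test either (adjusted p = 1.00 and 0.686). So the fall was called in footprints and not in TE, with TE intervals from -1.03 to -0.11 and from -1.04 to -0.07.

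Under thapsigargin EIF4E mRNA fell and its footprints were not called. The mRNA was at 62.4 and 38.5 CPM against 93.3 and 88.1 CPM in cycling cells, a fall of 0.85 on the log2 scale (edgeR adjusted p = 0.00497). A fit of these groups alone did not call it (adjusted p = 0.0834). Its footprints, at 42.0 and 41.7 CPM, lay just above the cycling libraries and were not called (0.18; adjusted p = 0.475). TE rose by 1.00 ± 0.27 (adjusted p = 0.0122), which was lost in a fit of these groups alone and without thapsigargin RNA-seq replicate 2 (adjusted p up to 0.0846).

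EIF4EBP1 (ENSG00000187840), the gene of 4E-BP1, was lowest after etoposide. Its mRNA was at 164 and 149 CPM in cycling, 144, 139 and 113 CPM in quiescent, and 109, 136 and 106 CPM in irradiated cells. In etoposide cells it was at 59.3, 64.6 and 67.7 CPM, below every other library, and thapsigargin gave 119 and 120 CPM. Every library outside the cycling state lay below the cycling pair. The fall was 1.29 ± 0.13 on the log2 scale after etoposide (edgeR adjusted p = 8.28e-06), called in every alternative. After irradiation it was 0.42 (adjusted p = 0.0283), a call lost with the replicate number as a block and without cycling RNA-seq replicate 1 or 2 or irradiated replicate 1 or 3 (adjusted p up to 0.198). The quiescent (-0.25) and thapsigargin (-0.39) values were not called (adjusted p = 0.260 and 0.0743).

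Footprints of EIF4EBP1 were at 59.9, 70.8 and 73.6 CPM in cycling cells and 22.1, 24.3 and 29.2 CPM in etoposide cells, a fall of 1.44 ± 0.18 (edgeR adjusted p = 4.19e-05). Irradiated libraries were between these, at 34.1, 43.1 and 54.0 CPM, with a fall of 0.65 (adjusted p = 0.0113) that was lost without cycling Ribo-seq replicate 3 or irradiated replicate 1 (adjusted p up to 0.0688). Quiescent libraries were at 48.2, 42.6 and 58.7 CPM and not called (-0.45; adjusted p = 0.0807), except with the replicate block (-0.46; adjusted p = 0.0278) or without quiescent replicate 3 (-0.56; adjusted p = 0.0410). The thapsigargin pair, at 41.4 and 33.4 CPM, was called (-0.87; adjusted p = 0.00662) except without thapsigargin replicate 2 (adjusted p = 0.0559). The mean of irradiated and etoposide cells lay below quiescent cells in mRNA and footprints (-0.61 and -0.59; edgeR adjusted p = 0.000633 and 0.0111), in every alternative. In both kinds of library the etoposide libraries were below all quiescent ones, while the irradiated ones overlapped them.

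EIF4EBP2 (chromosome 10, 70404145 to 70428618), the gene of 4E-BP2, had higher mRNA in the arrested states. Of those states, EIF4EBP1 was called lower after irradiation and etoposide, and in every alternative after etoposide only. Its mRNA was at 185 and 188 CPM in cycling, 281, 315 and 264 CPM in quiescent, 299, 277 and 359 CPM in irradiated, and 284, 306 and 287 CPM in etoposide cells. The 9 libraries of arrested cells were all above the cycling pair, and they overlapped each other. The rises were 0.62 ± 0.13 (edgeR adjusted p = 0.00747), 0.74 ± 0.13 (adjusted p = 0.000841) and 0.65 ± 0.13 (adjusted p = 0.00216). The quiescent call was lost without either cycling library (adjusted p up to 0.0794). Thapsigargin gave 152 and 186 CPM and no call (-0.14; adjusted p = 0.518).

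EIF4EBP2 footprints set the senescent states above quiescence. They were at 30.8, 36.8 and 36.8 CPM in cycling, 41.2, 44.2 and 42.4 CPM in quiescent, 66.5, 74.0 and 57.7 CPM in irradiated, and 58.7, 67.6 and 51.4 CPM in etoposide cells. The senescent libraries were above all quiescent ones. The rise against cycling cells was 0.92 ± 0.15 after irradiation (edgeR adjusted p = 0.000323) and 0.77 ± 0.15 after etoposide (adjusted p = 0.00132). It was 0.29 and not called in quiescent cells (adjusted p = 0.188), and the senescent states together exceeded quiescent cells by 0.55 (adjusted p = 0.00640). Under thapsigargin the footprints were at 13.6 and 8.35 CPM, from 25 and 16 counts, the lowest of all libraries. The fall was 1.67 ± 0.23 (adjusted p = 7.82e-05) and ranged from -2.07 to -1.34 when 1 library was left out, called each time.

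**Figure D3:**
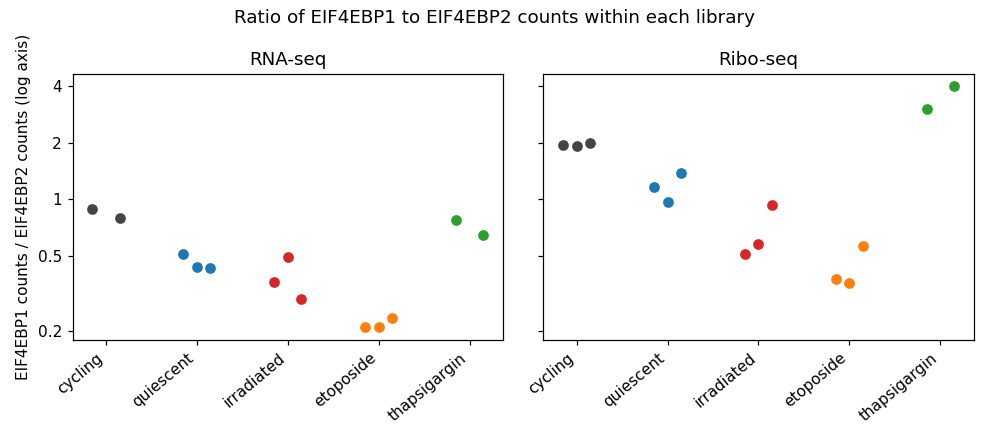
Counts of EIF4EBP1 divided by counts of EIF4EBP2 within each library (points, log axis), for RNA-seq and Ribo-seq in the 5 states. In both panels the cycling libraries lie above all those of quiescent, irradiated and etoposide cells, and the thapsigargin footprint ratios, 3.04 and 4.00, are the highest.

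The balance of the 4E-BP genes was read within each library, where depth and scaling cancel. The values below are ratios of counts, which follow gene length, so only differences between states have a meaning. In RNA-seq the ratio of EIF4EBP1 to EIF4EBP2 was 0.884 and 0.793 in cycling cells. Quiescent libraries were at 0.511, 0.440 and 0.430, irradiated ones at 0.365, 0.492 and 0.295, etoposide ones at 0.209, 0.211 and 0.235, and the thapsigargin pair at 0.777 and 0.645. The etoposide libraries were the lowest, the cycling pair was the highest, and quiescent and irradiated cells overlapped. In Ribo-seq cycling libraries had ratios of 1.95, 1.92 and 2.00, quiescent ones of 1.17, 0.963 and 1.39, irradiated ones of 0.512, 0.582 and 0.936, and etoposide ones of 0.376, 0.359 and 0.568. The quiescent libraries were above all senescent ones, while irradiated and etoposide cells overlapped. The thapsigargin pair, 3.04 and 4.00, lay above the rest, a place set by the low EIF4EBP2 count.

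The counts of both 4E-BP genes together were also set against those of EIF4E, the protein they bind. In Ribo-seq this ratio was 2.78 ± 0.12 in cycling cells (SD, n = 3). It was 4.37 ± 0.736 in quiescent and 5.29 ± 0.587 in irradiated cells (n = 3 each), where no library overlapped the cycling ones. Etoposide cells were at 2.98 ± 0.659 (n = 3) and overlapped them. The 2 thapsigargin libraries gave 1.00 and 1.31, below all others. An exact two-sided permutation test gave p = 0.1 for quiescent, irradiated and thapsigargin cells, the smallest value these groups allow, and 0.8 for etoposide cells. In RNA-seq the ratio was 3.78 ± 0.0622 in cycling (n = 2), 5.01 ± 0.879 in quiescent, 5.29 ± 0.529 in irradiated and 4.30 ± 0.432 in etoposide cells (n = 3 each), with exact permutation p = 0.2, 0.1 and 0.3. The thapsigargin pair, at 4.34 and 7.96, was above the cycling pair in mRNA and below it in footprints, and 2 against 2 libraries cannot give a p under 0.333. Each part of the sum behaved differently after etoposide, where EIF4EBP1 alone relative to EIF4E fell by 1.08 and EIF4EBP2 alone rose by 1.12 on the log2 scale in Ribo-seq.

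For TE, the model asked whether footprints changed by a different factor than mRNA. None of the 10 genes was called in quiescent (0.00854% of 11713 genes were called), irradiated (0.0512%) or etoposide cells (0.0683%) by edgeR, and none by DESeq2. At an unadjusted p under 0.05 there were 1, 1 and 0, and EIF4E after irradiation was called in the fit of its own groups alone (-0.70; adjusted p = 0.00883). Senescence against quiescence (0.0427%) and irradiation against etoposide (0%) gave no call by either tool, with 1 and 0 at an unadjusted p under 0.05. In simulated data for irradiated against cycling cells with 200 of 11713 genes changed 2-fold, 25.0% were recovered in TE, so changes of that size could be missed. Under thapsigargin 3 of 10 were called (20.8% of all genes). Besides EIF4E, TE of EIF4EBP2 fell by 1.56 ± 0.27 (adjusted p = 0.000318), in every alternative. TE of MTOR rose by 0.68 ± 0.21 (adjusted p = 0.0206), which was lost in 4 alternatives. These were the fit of its own groups and leaving out cycling RNA-seq replicate 2, thapsigargin Ribo-seq replicate 1 (0.28; adjusted p = 0.316) or thapsigargin RNA-seq replicate 1. TE of SESN2 and RPS6KB1 was -0.61 and -0.81 under thapsigargin and not called (edgeR adjusted p = 0.184 and 0.0841). Without thapsigargin Ribo-seq replicate 2 these values were -1.29 and -1.32. The median of all genes under thapsigargin was -0.11 in footprints and -0.15 in TE, so the thapsigargin values are to be read against that shift.

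**Figure D4:**
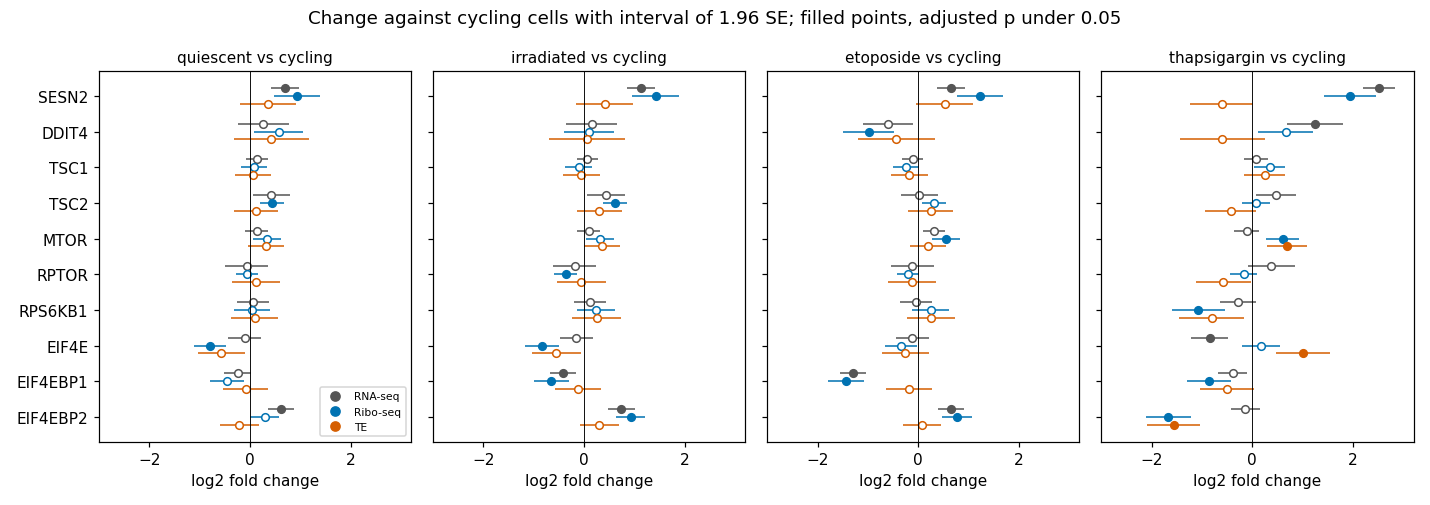
Log2 fold change of each gene against cycling cells in RNA-seq, Ribo-seq and TE, with bars of the 95% interval, for the 4 other states; filled points passed an adjusted p of 0.05. SESN2 is filled in RNA-seq and Ribo-seq in all 4 panels, and filled TE points (EIF4E, EIF4EBP2 and MTOR) appear under thapsigargin only.

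Irradiated and etoposide cells, both senescent at day 10, were compared directly. EIF4EBP1 was higher after irradiation by 0.87 ± 0.12 in mRNA (edgeR adjusted p = 0.000396) and 0.79 ± 0.19 in footprints (adjusted p = 0.00948), in every alternative, and the libraries did not overlap. DDIT4 was higher by 0.74 in mRNA (adjusted p = 0.0329) and 1.08 in footprints (adjusted p = 0.00944), again without overlap. The mRNA call for DDIT4 was lost without etoposide RNA-seq replicate 1 or 2 or without any of the 3 irradiated libraries (adjusted p up to 0.109), and the footprint call in a fit of these groups alone (adjusted p = 0.108). SESN2 mRNA was higher by 0.47 (adjusted p = 0.0154), a call lost without etoposide RNA-seq replicate 1 or 2 or irradiated replicate 1 (adjusted p up to 0.0666). Its footprints differed by 0.19, with an interval from -0.27 to 0.65 (adjusted p = 0.636). EIF4E footprints differed by -0.49, with an interval from -0.84 to -0.15, and were not called (adjusted p = 0.0602). DESeq2 called them (adjusted p = 0.0342), as did a fit of these groups alone (adjusted p = 0.0137) and leaving out etoposide Ribo-seq replicate 3 (-0.62) or irradiated replicate 2 (-0.61). EIF4EBP2 differed by 0.09 in mRNA, with an interval from -0.14 to 0.32.

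Genes that act beside these 10 were described by lists of the pathway. Of 10 tested genes for mTOR complex subunits and assembly, DEPTOR, an inhibitor bound to MTOR, moved in most states. Its mRNA was at 4.52 ± 0.736 CPM in cycling (n = 2), 5.24 ± 0.547 in quiescent, 16.4 ± 1.45 in irradiated and 10.9 ± 0.722 CPM in etoposide cells (n = 3 each), and at 1.00 and 1.58 CPM under thapsigargin. On the log2 scale it rose by 1.85 and 1.26 in the senescent states (by edgeR, adjusted p = 1.75e-05 and 0.000348) and changed by -1.83 under thapsigargin (adjusted p = 0.000128). The senescent states also exceeded quiescent cells, by 1.35 (adjusted p = 3.35e-05). PRR5, an mTORC2 subunit, rose after irradiation (0.96; adjusted p = 0.0271). RICTOR, the core subunit of mTORC2, rose under thapsigargin in mRNA (0.85; adjusted p = 0.00177) and footprints (1.26; adjusted p = 0.000137). In this list 0, 2, 2 and 5 genes were called in RNA-seq in quiescent, irradiated, etoposide and thapsigargin cells. Over all genes 15.6%, 34.9%, 34.5% and 24.5% were called, so the list had a smaller share than all genes in the first 3 states. The 0 in quiescent cells stood beside 1 at an unadjusted p under 0.05 and 0 by DESeq2. The counts of 2 were 4 in fits of the groups alone and 1 without cycling RNA-seq replicate 1 or 2, and in irradiated cells also without irradiated replicate 1 or 2. The thapsigargin count was 3 in a fit of these groups alone and without cycling replicate 2 or thapsigargin replicate 2.

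Of 28 tested genes of amino acid sensing at the lysosome, 4, 9, 9 and 6 were called in RNA-seq in the same order. These shares were near or below those over all genes (15.6%, 34.9%, 34.5% and 24.5%), so the number of calls did not stand apart. Of the calls 4, 8, 7 and 5 were higher (5.18%, 16.2%, 16.8% and 11.7% of all genes were called higher). The median log2 fold changes were 0.14, 0.26, 0.21 and 0.14, against 0.02, 0.03, 0.00162 and -0.03 over all genes. Under thapsigargin the other readouts were mixed. Footprints had 6 higher and 8 lower calls (44.4% of all genes called), with a median of 0.00901 against -0.11 over all genes. In TE, of 27 genes tested, 3 were called higher and 5 lower (20.8%), with a median of -0.34 against -0.15 over all genes. The footprint count was 7 and the TE count 2 in fits of these groups alone, and the TE count was 5 without cycling RNA-seq replicate 1 or thapsigargin Ribo-seq replicate 1. SESN3, a sestrin related to SESN2, was at 65.2 ± 8.10 CPM in cycling (n = 2), 110 ± 5.82 in quiescent, 213 ± 6.88 in irradiated and 115 ± 4.49 CPM in etoposide cells (n = 3 each). Its rises were 0.76, 1.71 and 0.83 (edgeR adjusted p = 0.00128, 3.21e-07 and 0.000114). RRAGD, a Rag GTPase that helps bring mTORC1 to the lysosome, was nearly absent in cycling cells at 0 and 0.110 CPM. It was at 0.302 to 1.09 CPM in quiescent, 1.29 to 1.80 CPM in irradiated, 2.62 to 3.53 CPM in etoposide and 3.69 and 4.02 CPM in thapsigargin cells. RRAGD passed the filter on low counts through states other than cycling. Against cycling cells it could therefore only be called higher, and it is among the 28 genes counted. Under thapsigargin RRAGC (1.54; adjusted p = 8.86e-05), FLCN, a Rag regulator (1.24; adjusted p = 3.46e-05), and its partner FNIP1 (1.14; adjusted p = 5.64e-05) rose as well. Without cycling RNA-seq replicate 1 the counts were 2, 5 and 3 in quiescent, irradiated and etoposide cells. Without cycling replicate 2 they were 1 in quiescent and 5 in etoposide cells, and in fits of the groups alone 1 in quiescent and 16 in irradiated cells.

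Of 22 tested genes of growth factor and energy input, 3, 6, 6 and 5 were called in RNA-seq, shares below those over all genes (15.6%, 34.9%, 34.5% and 24.5%), so the list as a whole did not stand apart. IRS2, an adaptor of the insulin receptor, rose in quiescent (0.84; edgeR adjusted p = 0.00797), irradiated (1.04; adjusted p = 0.000682) and thapsigargin cells (2.23; adjusted p = 7.59e-06). Its footprints rose by 3.78 under thapsigargin (adjusted p = 6.23e-08), from 19.2 ± 4.83 CPM (n = 3) to 263 ± 34.4 CPM (n = 2). DDIT4L, a relative of DDIT4, fell after irradiation (-1.13; adjusted p = 0.000140) and etoposide (-0.82; adjusted p = 0.00148) and rose under thapsigargin (1.88; adjusted p = 1.17e-05). PRKAB2, a subunit of the energy sensor AMPK, rose in all 3 arrested states, by 0.52, 0.92 and 0.62 (adjusted p = 0.0106, 6.29e-05 and 0.00133). The quiescent count was 0 and 1 without cycling RNA-seq replicate 1 or 2 and 1 in a fit of its groups alone. The etoposide count was 3 without cycling replicate 1 and 11 in a fit of its groups alone. The thapsigargin count was 2 in such a fit and 3 without cycling replicate 2 or thapsigargin replicate 2.

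Of 15 tested genes of the cap-binding complex and its regulators, 3, 5, 7 and 5 were called in RNA-seq, where 15.6%, 34.9%, 34.5% and 24.5% of all genes were. Of these 2, 4, 3 and 1 were higher and 1, 1, 4 and 4 lower. PDCD4, an inhibitor of the eIF4A helicase, rose in quiescent (0.55; edgeR adjusted p = 0.0217), irradiated (0.95; adjusted p = 0.000270) and etoposide cells (0.50; adjusted p = 0.0184), and its footprints rose in all 3 (0.54, 0.76 and 0.44). EIF4G3, a scaffold that binds eIF4E, rose by 0.49, 0.73 and 0.61 (adjusted p = 0.0130, 0.000355 and 0.00128). EIF4A1 was called lower in all 4 states but had only 4.91 ± 0.638 CPM in cycling cells (n = 2), and reads shared with overlapping genes are left out of its count, so its level is uncertain. MKNK2, a kinase of eIF4E, fell in footprints (-2.14; adjusted p = 1.66e-05) and TE (-2.06; adjusted p = 0.000142) under thapsigargin. The quiescent count was 1 without either cycling RNA-seq library and in a fit of its groups alone. The etoposide count was 4 and 2 without cycling replicate 1 or 2, and 4, 3 and 4 without etoposide replicate 1, 2 or 3. The thapsigargin count was 2 in a fit of its groups alone and without cycling replicate 1 or 2.

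Of 7 tested genes of the S6 kinase branch in RNA-seq, EEF2K, the kinase that S6 kinase inhibits and that slows elongation, fell in both senescent states. It was at 70.4 ± 3.61 CPM in cycling cells (n = 2) and 49.0 ± 1.26 and 37.0 ± 1.83 CPM after irradiation and etoposide (n = 3 each), falls of 0.52 (edgeR adjusted p = 0.00175) and 0.93 (adjusted p = 1.66e-05). Its footprints fell too (-0.70 and -1.21; adjusted p = 0.00146 and 1.81e-05). The branch had 0, 2, 1 and 2 calls in the 4 states, near or below the shares over all genes (15.6%, 34.9%, 34.5% and 24.5%). The 0 in quiescent cells stood beside 2 at an unadjusted p under 0.05 and 0 by DESeq2. The etoposide count was 2 with DESeq2, RLE scaling or the replicate block and 4 in a fit of its groups alone, and the thapsigargin count was 4 with DESeq2 and 1 in such a fit or without cycling RNA-seq replicate 1 or 2. RPS6, the ribosomal protein that S6 kinase phosphorylates, had fewer footprints in all 4 states (-0.30, -0.60, -0.54 and -0.39), but it has near-identical copies in the genome and its level is uncertain.

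mRNAs that begin with a terminal oligopyrimidine (TOP) tract are the best known translational targets of mTORC1, and 15 of them outside the ribosomal proteins were tested. In RNA-seq 0, 1, 8 and 9 were called in the order quiescent, irradiated, etoposide, thapsigargin, all lower. The 0 stood beside 2 at an unadjusted p under 0.05 and 0 by DESeq2, and the 1 (HNRNPA1) was 2 by DESeq2 and with the replicate block and 3 in a fit of its groups alone. Of all genes, 17.8% were called lower after etoposide and 12.8% under thapsigargin. The medians were -0.39 after etoposide and -0.41 under thapsigargin, against 0.00162 and -0.03 over all genes. The etoposide count was 3 and 4 without cycling RNA-seq replicate 1 or 2, and 5 without etoposide replicate 2 or 3. The thapsigargin count was 3 in a fit of its groups alone and without cycling replicate 1 or 2 or thapsigargin replicate 2, and 5 without thapsigargin replicate 1. HNRNPA1, a splicing factor, fell by 1.53 after etoposide (edgeR adjusted p = 4.80e-05) and EEF1A1, the elongation factor, by 0.95 under thapsigargin (adjusted p = 0.000634).

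For TE of the TOP list edgeR called 0 of 15 in each of the arrested states, with 2, 3 and 4 at an unadjusted p under 0.05 in quiescent, irradiated and etoposide cells and 0 by DESeq2. Fits of the groups alone called 1 after irradiation and 1 after etoposide. Under thapsigargin 8 of 15 were called higher and 0 lower (7.89% of all genes were called higher), with a median of 0.62 against -0.15 over all genes. EEF1B2 (1.70; adjusted p = 5.45e-05), HNRNPA1 (1.59; adjusted p = 0.00198), EEF1A1 (1.35; adjusted p = 0.000270) and NPM1 (1.29; adjusted p = 0.00621) led the list. The count was 4 in a fit of these groups alone and 5 without thapsigargin Ribo-seq replicate 1. In footprints the list had 6 higher and 4 lower calls under thapsigargin (44.4% of all genes called), with a median of 0.15 against -0.11 over all genes. These genes have near-identical copies in the genome, and reads that map to several places are in no gene's count. The share of such reads was 65.2% to 66.9% in the thapsigargin Ribo-seq libraries, and its part in the TE values was not tested.

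The genes whose RNA-seq levels ran closest to 3 of the members over the 13 libraries were named by Pearson's r of log2 CPM, as a description. The libraries share their states, and thapsigargin stands apart in many genes. For SESN2 they were TSC22D1 (0.98), MAFG, HSPB7, VPS37C and DDIT3 (0.97), the last the gene of the stress factor CHOP. For DDIT4 they were CACNB1 (0.98), CDC42EP1, DIRAS1, HCFC1R1 and PLEKHF1 (0.95). For EIF4EBP1 they were OGG1 (0.97), TOX, PAK1, ITPK1 and MZT2A (0.94). As a check of the states, DDIT3 mRNA was at 496 and 383 CPM under thapsigargin and 39.6 and 41.5 CPM in cycling cells, and LMNB1, the lamin B1 gene, was below 7 CPM in all 6 senescent RNA-seq libraries against 69.7 and 82.7 CPM in cycling cells.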

How the data were processed

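The authors deposited raw read counts per gene for each library, with separate counts for each strand, and the submitters' processing notes name STAR 2.7.10b, build hg38 and DESeq2 1.36.0. RNA-seq used the counts of the reverse strand and Ribo-seq those of the forward strand. The labels' protocols and the series text give different RNase times, and one label calls every thapsigargin library protected fragments, so titles set the library type. The 60534 shared identifiers held at least 99.6% of each library's counts. Identifiers were matched by symbol to RefSeq GRCh38.p14. edgeR 4.0.16 in R 4.3.3 (TMM, filterByExpr, robust quasi-likelihood F test, two-sided, Benjamini-Hochberg) was fitted over all 5 states, on 13291 genes for RNA-seq, 11764 for Ribo-seq and 11713 for TE, in 6 comparisons. CPM is counts per 1e6 after TMM scaling. Intervals reach 1.96 SE to each side of the value, and some leave out 0 at an unadjusted edgeR p above 0.05. The fit was tested on simulated data for irradiated against cycling cells, which recovered 71.0% of 200 genes changed 2-fold among 13291 in RNA-seq and 74.0% among 11764 in Ribo-seq. Alternatives were DESeq2 1.42.0, RLE scaling, no filter, only the groups compared, a replicate block and each library left out. The named genes are the 10 members, state markers, up to 4 called genes of each list with the largest change, and the 5 genes most alike to DDIT4, SESN2 and EIF4EBP1; FLCN, FNIP1, RICTOR, PRR5, PRKAB2, RPS6 and POLDIP3 include some chosen after their values were seen. The labels number the replicates without saying what a number marks. Same-numbered cycling and quiescent Ribo-seq libraries deviated together from their state means (r = 0.16, 0.26 and 0.28, against at most 0.05 for different numbers). Deviations within a state cancel out, so the values for different numbers are no independent baseline. The fit with the replicate number as a block is therefore given beside the quiescent footprint call it changes. The members and lists were chosen with earlier results of these data known. Levels of different genes were not compared, since no coding lengths were used here, and proteins were not analysed here.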

Additional observations from a re-analysis of the deposited data

Results flagged for a closer look

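The members below differed between the 2 senescent states, irradiated minus etoposide, by a direct test of the difference (edgeR). EIF4EBP1 differed by 0.87 in mRNA (adjusted p = 0.000396) and 0.79 in footprints (adjusted p = 0.00948). DDIT4 differed by 0.74 in mRNA (adjusted p = 0.0329) and 1.08 in footprints (adjusted p = 0.00944). SESN2 differed by 0.47 in mRNA (adjusted p = 0.0154). In each case all 3 irradiated libraries were above all 3 etoposide libraries, which adds nothing to calls made on these libraries. Members not called separated as well. TSC2 in both kinds of library and SESN2 footprints lay above, and MTOR in both kinds and RPTOR footprints lay below. Of the 10 members 3 were called in mRNA and 2 in footprints, against 22.6% and 21.7% of all genes.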

How the results depend on the processing

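Of 2340 values of the 10 genes under alternatives, 2263 stayed on their side of the threshold, 106 of them with a change of sign in a value called in neither fit, 39 lost a call, 38 gained one and none that was called changed sign. Fitting only the groups compared gave 4 called members for irradiated against etoposide cells in Ribo-seq (2 otherwise), 5 in RNA-seq (3), 5 for senescent against quiescent cells in Ribo-seq (3), and in TE 1 after irradiation (0) and 1 under thapsigargin (3). Leaving out 1 library gave 1 to 3 called members in RNA-seq for irradiated against etoposide cells, 0 to 2 for quiescent cells, 1 to 2 for senescent against quiescent cells and 2 to 5 for thapsigargin cells, and 2 to 5 in TE under thapsigargin. The cause was not tested. The log2 difference of the 4E-BP to EIF4E ratio from cycling cells depended on the gene. With EIF4EBP1 alone and EIF4EBP2 alone it was -1.08 and 1.12 (etoposide), 0.17 and 1.75 (irradiated) and 0.34 and 1.09 (quiescent) in Ribo-seq, and -1.17 and 0.77, -0.27 and 0.89, and -0.15 and 0.72 in RNA-seq. With EIF4EBP2 alone it was -1.88 under thapsigargin in Ribo-seq.

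Counts over all genes moved by more than 1.5 times in these settings. With only the groups compared they were 853 (2068 otherwise) in quiescent and 1507 (3256) in thapsigargin RNA-seq, 6021 (4000) in etoposide Ribo-seq and 4134 (2551) for irradiated against etoposide Ribo-seq. In TE they were 760 (6) after irradiation, 28 (8) after etoposide, 0 (1) in quiescence, 606 (0) for irradiated against etoposide, 11 (5) for senescent against quiescent and 1053 (2432) under thapsigargin. Without cycling RNA-seq replicate 1 or 2 the RNA-seq counts were 707 and 889 for quiescent, 2777 and 3090 (4643) for irradiated, 2612 and 2915 (4591) for etoposide and 1722 and 1592 for thapsigargin cells. Ribo-seq gave 1558 (2556) in quiescent cells without cycling replicate 3, and 1500 for irradiated against etoposide without irradiated replicate 1. RNA-seq gave 1893 and 1841 (2999) there without irradiated replicate 1 or etoposide replicate 2. TE under thapsigargin gave 1557 without cycling RNA-seq replicate 1 and 3770 without thapsigargin Ribo-seq replicate 2. DESeq2 called 6, 32, 40, 38 and 6 genes in TE in quiescent, irradiated, etoposide, senescent against quiescent, and irradiated against etoposide cells. Without the filter TE gave 2, 14 and 9 in quiescent, etoposide and senescent against quiescent cells, and leaving out 1 library gave 0 to 4 in quiescent, as few as 1 after irradiation, as few as 5 after etoposide and up to 14 for senescent against quiescent cells.

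The deviations of same-numbered libraries from their state means had r from -0.32 to 0.64 across states in RNA-seq (10 of 23 above 0.1), -0.18 to 0.28 in Ribo-seq (7 of 26) and -0.02 to 0.57 between RNA-seq and Ribo-seq of a state (6 of 13; mean 0.14, against -0.07 for different numbers). Deviations within a state cancel out, so these pairs are not independent of each other. Both pairs of cycling and thapsigargin RNA-seq, for example, had the same r of 0.28. All 3 pairs were above 0.1 between cycling and quiescent Ribo-seq and between RNA-seq and Ribo-seq of etoposide cells (0.13, 0.38 and 0.20), but not in the other comparisons of 3 pairs. With the replicate number as a block, 2 members were called after irradiation in RNA-seq (3 otherwise) and 4 in quiescent Ribo-seq (3), where EIF4EBP1 was -0.46 (adjusted p = 0.0278), and all other member counts stayed the same. The block gave 2 (6), 1 (0), 0 (1) and 10 (5) TE calls over all genes for irradiated, irradiated against etoposide, quiescent, and senescent against quiescent cells. Footprint depth limits the thapsigargin values of EIF4EBP2 and RPS6KB1, which rest on 12 to 25 counts a library.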
